A study of Homo sapiens with 12 samples.

Results

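The Kruppel-like factors (KLFs) described here were 10 genes, KLF2, KLF3, KLF4, KLF5, KLF6, KLF7, KLF9, KLF10, KLF11 and KLF13, among 58735 genes counted by RNA-seq in HaCaT and TIGK. They were found by gene name, each name matched 1 gene, and all 10 passed the filter on low counts that left 16618 genes to test. The family was taken up because KLF2 was among the largest rises after H2O2 in TIGK, so the TIGK response of the members is given as a description with no test. HaCaT cells are keratinocytes of adult human skin that became immortal spontaneously in culture, and TIGK cells come from human gingiva and were immortalized with telomerase. Both were kept in the same serum-free keratinocyte medium, which contains hydrocortisone, and were either left untreated or given 5 mM H2O2 in that medium for 3 h. Each of the 4 groups, untreated HaCaT, H2O2-treated HaCaT, untreated TIGK and H2O2-treated TIGK, had 3 libraries of polyA RNA. With 1 line for each tissue, a difference between skin and gingiva cannot be told apart from a difference between these lines. No label states that the 3 libraries of a group came from separate cultures, so p-values measure the spread between these samples, which may be technical.

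KLFs are transcription factors with a conserved array of C2H2 zinc fingers at the C terminus, through which they bind GC-rich and CACCC elements in gene regulatory regions. Their N-terminal parts differ and recruit different partners. KLF3 binds the corepressor CtBP, KLF2, KLF4, KLF5, KLF6 and KLF7 act mostly as activators that can recruit histone acetyltransferases, and KLF9, KLF10, KLF11 and KLF13 bind the SIN3A corepressor. In stratified epithelia KLF5 is known from the proliferating basal layer and KLF4 from the differentiating layers, where it is needed for the permeability barrier, and several members are induced within hours of injury or stress.

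Library totals were between 30426401 and 49034244 counts. All 10 keratinocyte markers (KRT5, KRT14, TP63 and others) were detected in every group, with a summed level of 46051 to 66467 TPM (a level per gene length, scaled to the library total), whereas summed levels of fibroblast, endothelial, melanocyte and leukocyte markers stayed between 0.106 and 11.8 TPM. Each of the latter sums was higher in TIGK than in HaCaT. The leukocyte sum was 0.356 to 0.766 TPM in untreated and 0.106 to 0.485 in treated HaCaT. In TIGK it was 8.28 to 9.95 TPM untreated and 8.94 to 10.1 treated. The 2 leukocyte markers tested, CSF1R and CD14, were higher in untreated TIGK by 4.49 and 3.74 on the log2 scale. PTPRC and LYZ were at 0 in all untreated TIGK libraries, and LYZ in all untreated HaCaT libraries. None of the 6 leukocyte markers was at 0 in every library of treated TIGK or of treated HaCaT. Mitochondrial genes took 6.10% to 6.26% of counts in untreated HaCaT and 3.30% to 3.51% after H2O2, and 3.33% to 3.45% and 1.39% to 1.5% in TIGK. This share moved with the treatment and the cell type, and its part in the results was not tested.

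Promoter sequence was examined for every member with a window at hand, and the stretches shown were picked by the motifs found. RefSeq promoter windows (GRCh38.p14, from 250 bases before to 50 after a start site) were at hand for 8 members, with 13 windows in all. Of 10 motifs searched on both strands, those found in KLF2, KLF7 or KLF11 alone, and the CCAAT boxes of KLF6 and KLF9, are shown, with the named motif in capitals and the stretch around it in lower case, written 5′ to 3′ in the direction of transcription. None of these stretches overlapped an annotated exon of GENCODE.
KLF2, chr19:16324626-16324816, plus strand, 200 to 10 bases before the start, with a MEF2 site: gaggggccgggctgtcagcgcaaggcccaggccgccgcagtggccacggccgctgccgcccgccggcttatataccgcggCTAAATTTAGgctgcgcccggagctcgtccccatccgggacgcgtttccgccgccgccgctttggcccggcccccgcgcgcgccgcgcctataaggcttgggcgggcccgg
KLF7, chr2:207167271-207167346, minus strand, with a CArG box: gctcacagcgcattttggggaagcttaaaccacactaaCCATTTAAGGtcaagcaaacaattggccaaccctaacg
KLF11, chr2:10044035-10044062, plus strand, with a full cAMP response element: tttccagccaTGACGTCAccccggtcct
KLF6, chr10:3785289-3785409, minus strand, with a pair of CCAAT boxes in reverse: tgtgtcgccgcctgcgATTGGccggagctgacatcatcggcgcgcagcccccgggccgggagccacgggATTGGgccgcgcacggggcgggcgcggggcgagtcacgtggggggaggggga
KLF9, chr9:70414658-70414777, minus strand, with a pair of CCAAT boxes in reverse: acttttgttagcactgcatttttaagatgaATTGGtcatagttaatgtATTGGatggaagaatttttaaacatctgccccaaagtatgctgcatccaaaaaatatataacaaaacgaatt
MEF2 sites are bound by the factors through which the kinase ERK5 induces KLF2, CArG boxes by serum response factor, TGACGTCA by CREB and ATF factors, and CCAAT boxes by NF-Y. The MEF2 site was present in 3.0% of all 34943 promoter windows, the CArG box in 1.3%, TGACGTCA in 1.84% and CCAAT in 34.6%. These shares are per window and per motif. KLF7 and KLF11 each had more than 1 window, and 1 of these held the CArG box or TGACGTCA. Pairs of CCAAT boxes, not shown, were also in a window of KLF5 (from -245 and -67 bases relative to the start) and of KLF13 (-248 and -223). Of the 13 windows of the members, the SP and KLF element GGGCGG was in 8, from 7 members (44.9% of all windows), CACCC in 7, from 4 members (59.8%), CCAAT in 6, from 5 members, and TATAAA in 1, of KLF5 (11.6%). TGANTCA (AP-1, in 7.72% of all windows), TGACNNNGC (NRF2, 13.3%) and the full glucocorticoid response element (0.389%) were in 0 of the 8. TATAAA can lie within a MEF2 site or a CArG box, and each match is a match of letters only. The windows also differed in base composition: that of KLF2 was 80.7% G and C and that of KLF9 32.7%.

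The first question was how each member responded to H2O2. KLF2 (ENSG00000127528; GRCh38 chr19:16324817-16327874, plus strand), which in endothelium and T cells is known for quiescence and is induced through ERK5 and MEF2, showed the largest log2 fold change of the 10 members in both cell types. In HaCaT its normalized counts, which are counts scaled to a common library size, were 8.4, 14.4 and 17.8 before and 148, 181 and 102 after H2O2. In TIGK they were 114, 112 and 94.1 before and 1795, 1643 and 1829.7 after. The groups did not overlap within either line, and the treated HaCaT libraries lay about where the untreated TIGK libraries did. The rise in HaCaT was 10.9-fold (log2 fold change 3.44, SE 0.248, adjusted p = 4.72e-09, edgeR quasi-likelihood test with Benjamini-Hochberg adjustment), although it started from raw counts of 11 to 18 per library. In TIGK the level was 16.4-fold higher (log2 4.04, SE 0.16), the fifth largest rise among all genes tested and the 24th largest log2 fold change in either direction. Given with no test, the log2 responses differed by 0.60 between the lines (SE 0.347). This difference contains the TIGK rise on which the family was picked. In these bulk samples a change in the RNA of each cell cannot be told apart from a change in the cells that make up a sample. KLF2 is highly expressed in endothelium. The summed level of 7 endothelial markers was 3.28 to 4.25 TPM in untreated and 3.94 to 5.62 in treated HaCaT. In TIGK it was 8.41 to 10.9 TPM untreated and 9.53 to 11.8 treated. Of the 7 markers, 5 had counts in untreated HaCaT, 3 in treated HaCaT and 6 in each TIGK group. CDH5, a defining marker, was at 0 in all libraries of untreated HaCaT, treated HaCaT and untreated TIGK. It had 0 to 4 raw counts in treated TIGK. In untreated TIGK EGFL7 was higher than in untreated HaCaT by 1.37 on the log2 scale (adjusted p = 3.92e-06, edgeR). VWF was lower there by 1.90 (adjusted p = 0.00501, edgeR). KLF2 is also known from T cells, and the leukocyte sums given above were higher in TIGK. The part of endothelial cells or leukocytes in the KLF2 values was not tested.

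**Figure D1:**
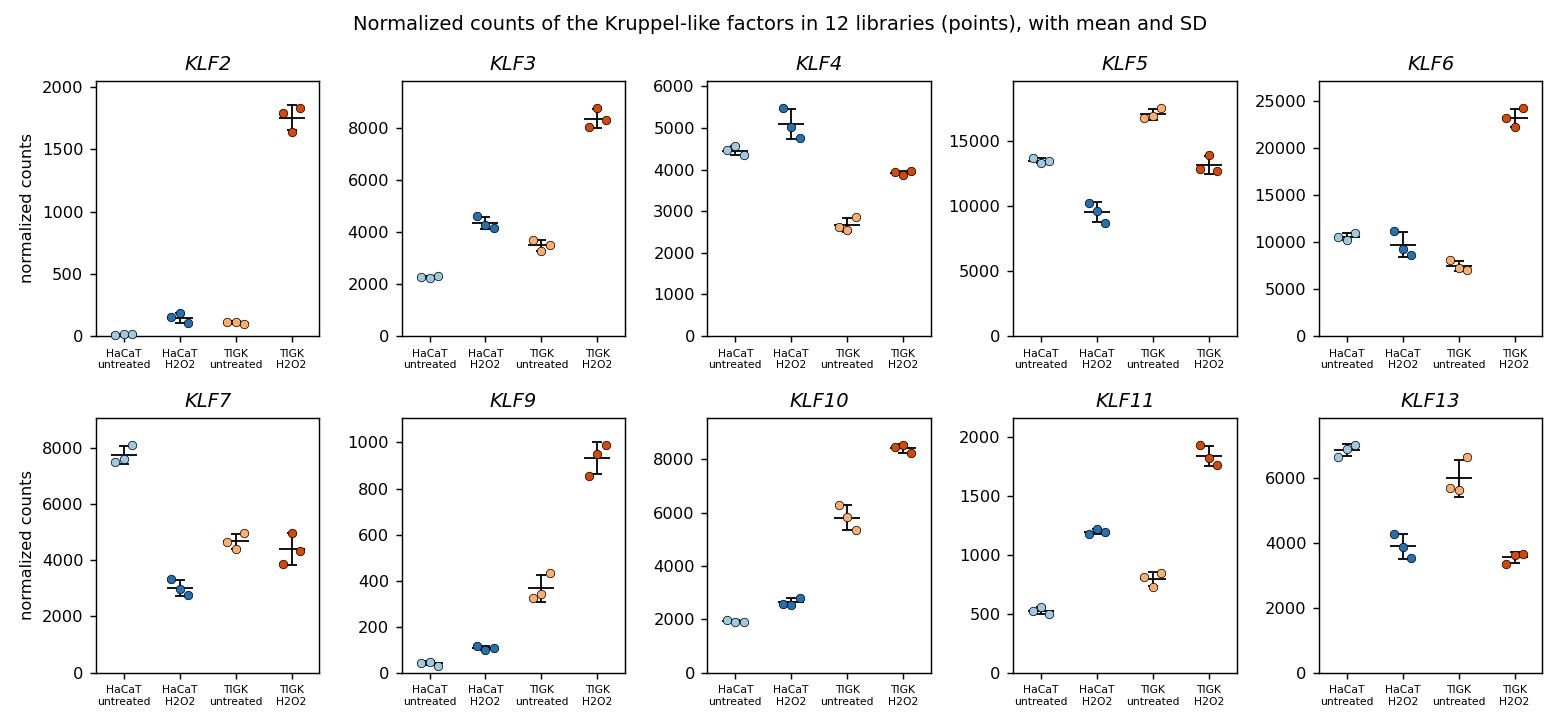
Normalized counts of the 10 KLFs in each of the 12 libraries (points), with the mean (horizontal bar) and SD of the 3 libraries per group; the y axis differs between panels and starts at 0. KLF2 reached 1643 to 1829.7 in treated TIGK against at most 181 in any other group, and KLF6 at 22236 to 24206 in treated TIGK was above all its other libraries.

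KLF6 (ENSG00000067082; chr10:3775996-3785281, minus strand), an early response gene of wounded epithelium and endothelium, was higher after H2O2 in every TIGK library and showed no detectable change in HaCaT. Its normalized counts in TIGK were 8054, 7221 and 7009.8 before and 23147, 22236 and 24206 after H2O2. In HaCaT they were 10550.2, 10223 and 10904 before and 11194, 9286 and 8609 after. The HaCaT groups overlapped, and the lowest treated TIGK library was above all HaCaT libraries. In TIGK this was a 3.12-fold higher level (log2 1.64, SE 0.0792), and in HaCaT the log2 fold change was -0.12 (SE 0.0775, adjusted p = 0.206, 95% interval -0.29 to 0.04). The HaCaT value hung on 1 library: without treated HaCaT replicate 1 it was -0.27, with an adjusted p of 0.00221 by edgeR. KLF6 had the largest difference of responses of the members tested, 1.77 on the log2 scale (SE 0.11, 95% interval 1.53 to 2.00, adjusted p = 7.43e-09, edgeR).

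KLF7 (ENSG00000118263; chr2:207074137-207167267, minus strand), best known from neurons and adipose tissue, fell in HaCaT, while its TIGK groups overlapped. HaCaT libraries held 7510.0, 7619.6 and 8112 normalized counts before and 3342, 2973 and 2772 after H2O2. TIGK libraries held 4652, 4411 and 4965 before and 3879, 4989 and 4347 after. All treated HaCaT libraries were below every other library, while the TIGK libraries did not separate by treatment. The fall in HaCaT was 2.56-fold (log2 fold change -1.35, SE 0.0822, adjusted p = 4.69e-10, edgeR). The TIGK log2 fold change was -0.09 (SE 0.0808), and the difference of responses was 1.27 (SE 0.115, 95% interval 1.03 to 1.51, adjusted p = 6.62e-07). KLF7 overlapped the intronic transcript KLF7-IT1 on the same strand, which had 0 to 79 raw counts against at least 2550 for KLF7.

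The epithelial activators KLF4 and KLF5 had log2 fold changes of opposite sign in both lines. KLF4 (ENSG00000136826; chr9:107484852-107490482, minus strand), the differentiation factor, had 4465, 4559.6 and 4341 normalized counts in untreated and 5471, 5027 and 4754 in treated HaCaT. In TIGK it had 2613, 2542 and 2867 before and 3937, 3870.4 and 3958 after. Treated libraries were above untreated ones in both lines, but the HaCaT log2 fold change of 0.19 (SE 0.0595) did not pass the limit of 0.01 (adjusted p = 0.0135, edgeR), and that in TIGK was 0.55 (SE 0.0605). The responses differed by 0.36 (SE 0.0848, adjusted p = 0.00891), a call that was lost without any 1 of the 3 untreated HaCaT libraries (adjusted p = 0.0148 to 0.0275) and without treated HaCaT replicate 2 or 3, untreated TIGK replicate 1 or 2, or treated TIGK replicate 1 (0.0108 to 0.0255). The HaCaT response of KLF4 passed the limit without treated HaCaT replicate 3 (adjusted p = 0.00299) or untreated TIGK replicate 3 (0.00766, edgeR). KLF5 (ENSG00000102554; chr13:73054976-73077542, plus strand), the basal-layer factor, went the other way. It was at 13272 to 13671 normalized counts in untreated and 8688 to 10217 in treated HaCaT, a fall of 1.42-fold (log2 -0.50, SE 0.0592, adjusted p = 2.24e-06). In TIGK it was at 16722 to 17478 before and 12669 to 13928 after, 1.3-fold lower (log2 -0.37, SE 0.0589), and the responses differed by 0.13 (95% interval -0.04 to 0.30, adjusted p = 0.349, edgeR).

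KLF3 and KLF11 had similar profiles. KLF3 (ENSG00000109787; chr4:38664196-38701042, plus strand), the CtBP-binding repressor, had 2269, 2241 and 2319 normalized counts in untreated and 4621, 4293 and 4140.1 in treated HaCaT, and 3691, 3264 and 3516 before and 8042, 8770.5 and 8312 after H2O2 in TIGK. KLF11 (ENSG00000172059; chr2:10042849-10054836, plus strand), a TGF-beta-inducible repressor, had 521, 554 and 495 in untreated and 1173, 1215 and 1196 in treated HaCaT. Its TIGK libraries held 814, 727 and 845 before and 1929.6, 1823 and 1761 after. No treated library of either gene fell within the range of its untreated group. In HaCaT KLF3 rose 1.91-fold (log2 0.93, SE 0.0599, adjusted p = 9.54e-10) and KLF11 2.28-fold (log2 1.19, SE 0.0781, adjusted p = 1.27e-09, both edgeR). In TIGK they were 2.4-fold and 2.31-fold higher (log2 1.26, SE 0.0592, and 1.21, SE 0.0756). The difference of responses was 0.02 for KLF11 (95% interval -0.21 to 0.24, adjusted p = 0.958) and 0.33 for KLF3 (95% interval 0.15 to 0.50, adjusted p = 0.0146, edgeR), neither past the limit. KLF3 was past it without treated HaCaT replicate 1 (0.43, adjusted p = 0.0016, edgeR). The antisense gene KLF3-AS1, which overlaps the start of KLF3, had 5 to 30 raw counts against at least 2028 for KLF3, and whether the counting used strand is not given in the sources used here.

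The remaining SIN3A-binding members did not share a direction. KLF9 (ENSG00000119138; chr9:70384597-70414624, minus strand), a direct target of the glucocorticoid receptor, had 43.6, 46.4 and 29.6 normalized counts in untreated and 116, 100.3 and 108 in treated HaCaT. TIGK libraries held 324, 340.1 and 433 before and 855, 949.8 and 989 after. All 4 groups were apart from each other, in the order untreated HaCaT, treated HaCaT, untreated TIGK, treated TIGK. The rise in HaCaT was 2.7-fold (log2 1.43, SE 0.184, adjusted p = 6.05e-06, edgeR), the level in TIGK was 2.55-fold higher (log2 1.35, SE 0.13), and the responses differed by -0.08 (95% interval -0.55 to 0.38, adjusted p = 0.866). KLF10 (ENSG00000155090; chr8:102648779-102655902, minus strand), the other TGF-beta-inducible member, had 1987, 1897 and 1905 in untreated and 2576, 2538 and 2813 in treated HaCaT, a rise of 1.37-fold (log2 0.45, SE 0.0626, adjusted p = 1.37e-05). In TIGK KLF10 had 6283, 5824 and 5334 before and 8466, 8537 and 8226 after (1.45-fold higher, log2 0.53, SE 0.0602), and the responses differed by 0.08 (95% interval -0.10 to 0.26, adjusted p = 0.618). KLF13 (ENSG00000169926; chr15:31326855-31435665, plus strand), known from late-activated T cells, was the only one of the 4 SIN3A-binding members with lower values after H2O2. Its range was 6643 to 7011 in untreated and 3516 to 4274 in treated HaCaT, a fall of 1.76-fold (log2 -0.82, SE 0.0726, adjusted p = 7.26e-08), and 5628 to 6639.8 in untreated and 3357 to 3655 in treated TIGK (log2 -0.75, SE 0.0726). Its responses differed by 0.06 (95% interval -0.15 to 0.28, adjusted p = 0.764, edgeR).

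Counted over the family, 5 members rose and 3 fell in HaCaT, and 2, KLF4 and KLF6, did not pass the limit. The same limit called 18.9% of all genes tested higher and 15.2% lower in HaCaT. The ranges of treated and untreated HaCaT libraries were apart for 9 of the 10 members, against 53.8% of all genes tested. In TIGK, counted by sign alone and with no test, 7 members had a positive and 3 a negative log2 fold change (KLF5, KLF7 and KLF13). The groups of KLF7 overlapped. Signs over all genes tested were close to balanced, with a median log2 fold change of 0.0084. The limit, which is stricter than a count by sign, called 10.2% of all genes higher and 12.9% lower. Ranges were apart for 9 members and for 51.1% of all genes. As the family was picked on this contrast, nothing is read from these counts. The median log2 fold change of the members was 0.32 in HaCaT (0.038 over all genes tested) and 0.88 in TIGK (0.0084 over all genes). Of the 9 members other than KLF2, 3 responded more positively in TIGK than in HaCaT (KLF6, KLF7 and KLF4) and 0 less by edgeR (0 also at an unadjusted p under 0.05 and by DESeq2), against 2.32% and 2.98% of all genes. This difference of responses contains the TIGK response on which the family was picked.

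**Figure D2:**
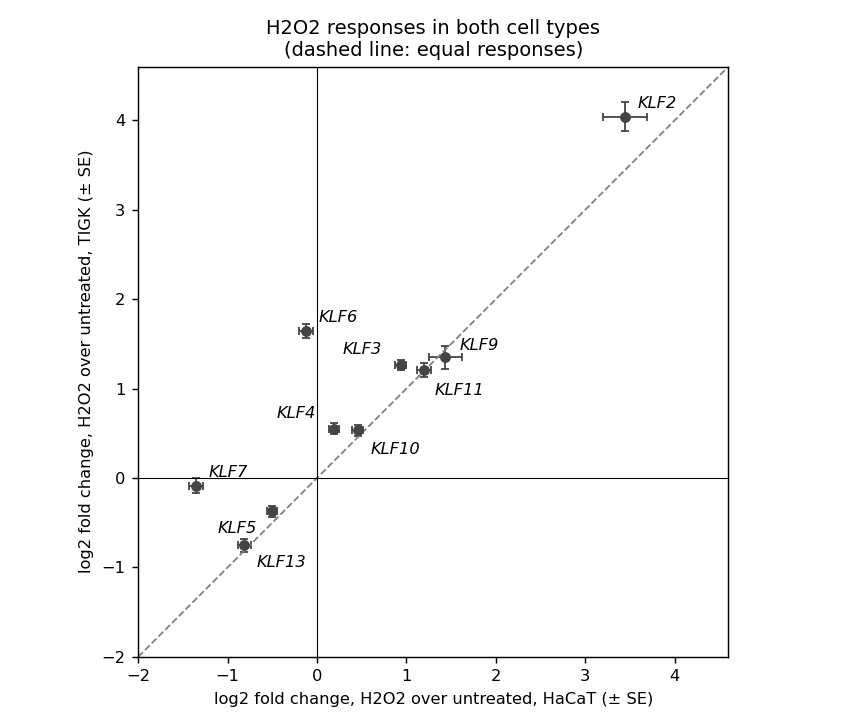
Log2 fold change of each KLF after H2O2 in HaCaT (x axis) and in TIGK (y axis), each with its SE from the edgeR fit on 12 libraries; the dashed line marks equal responses. KLF6 and KLF7 lie farthest above the line among the members tested, with differences of 1.77 and 1.27, and KLF9, KLF10, KLF11 and KLF13 lie near it.

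The next comparison was between the lines before treatment, which shares the untreated TIGK libraries with the contrast above. Of the 9 members other than KLF2, 5 were higher in TIGK and 3 were higher in HaCaT, where 30.8% of all genes tested were higher and 29.1% lower in TIGK. The ranges of the lines were apart for all 10 members and for 73.3% of all genes. KLF9 and KLF2 were furthest apart. KLF9 was 9.13-fold higher in TIGK (log2 3.19, SE 0.167, adjusted p = 2.66e-12, edgeR) and KLF2, given with no test, 8.09-fold (log2 3.02, SE 0.256). KLF10 was 3.01-fold higher (adjusted p = 3.95e-14), followed by KLF3 at 1.53-fold (2.52e-08), KLF11 at 1.52-fold (1.36e-06) and KLF5 at 1.26-fold (adjusted p = 4.54e-05). HaCaT held more KLF4, by 1.67-fold (adjusted p = 2.28e-09), more KLF7, by 1.66-fold (1.56e-07), and more KLF6, by 1.42-fold (adjusted p = 1.06e-05). KLF13 did not pass the limit (log2 -0.19, SE 0.0716, adjusted p = 0.0219, edgeR), although its ranges, 6643 to 7011 in HaCaT and 5628 to 6639.8 in TIGK, just failed to meet. It passed without treated HaCaT replicate 1 or 3 or untreated TIGK replicate 3 (adjusted p = 0.00209 to 0.0069).

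After H2O2, 7 of the 9 members other than KLF2 were higher in TIGK and 1, KLF4, was higher in HaCaT, against 29.8% and 30.2% of all genes tested. Ranges were apart for 9 of all 10 members and for 71.3% of all genes. KLF6 and KLF7 changed their order between the lines. KLF6 was 2.39-fold higher in treated TIGK (log2 1.26, SE 0.0784, adjusted p = 3.9e-11, edgeR) and KLF7 1.45-fold higher (log2 0.54, SE 0.0818, adjusted p = 8.88e-06), both having been lower in untreated TIGK. KLF9 was 8.62-fold (6.27e-13), KLF10 3.18-fold (1.87e-14), KLF3 1.92-fold (3.81e-11), KLF11 1.54-fold (4.37e-07) and KLF5 1.38-fold higher (adjusted p = 9.2e-07). KLF4 was 1.3-fold lower (adjusted p = 1.68e-05), a smaller gap than before treatment, and KLF13 did not pass (log2 -0.13, adjusted p = 0.113, edgeR). KLF2, given with no test, was 12.3-fold higher in treated TIGK than in treated HaCaT (log2 3.62, SE 0.155).

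**Figure D3:**
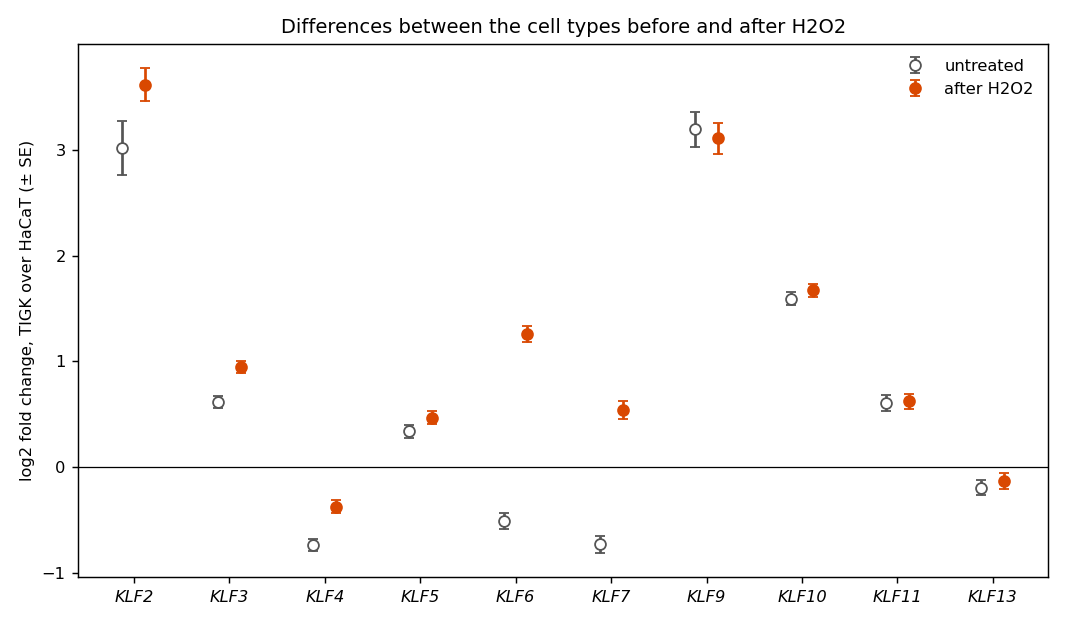
Log2 fold change of TIGK over HaCaT for each KLF, with its SE, in untreated libraries (open circles) and after H2O2 (filled circles). KLF6 and KLF7 lie below 0 before and above 0 after H2O2, while KLF9 stays at 3.19 and 3.11.

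Levels of different members were compared per gene length, as TPM computed from the deposited counts and gene lengths. KLF5 was the most abundant in untreated HaCaT (331 ± 4.09 TPM, SD, n = 3) and in untreated TIGK (473 ± 23.7 TPM). Untreated HaCaT then held KLF6 (165), KLF4 (117), KLF7 (80.1), KLF13 (69.8), KLF10 (46.2), KLF3 (34.6) and KLF11 (10.9), each apart from the next, and KLF9 (0.738) and KLF2 (0.642 TPM), which overlapped. Untreated TIGK held KLF10 (157), KLF6 (131), KLF4 (79.1), KLF13 (68.9), KLF3 (59.9), KLF7 (54.7), KLF11 (18.8), KLF9 (7.67) and KLF2 (5.71 TPM), of which KLF4 and KLF13, and KLF3 and KLF7, overlapped. In treated HaCaT KLF5 still led at 235 ± 28.6 TPM, and KLF6 (152) and KLF4 (134) overlapped. There KLF3 (66.5) and KLF10 (63.3), and KLF13 (39.8) and KLF7 (31.5), also overlapped, followed by KLF11 (25.0), KLF2 (6.86) and KLF9 (2.01 TPM).

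Treated TIGK differed in its order. KLF6 (412 ± 16.3 TPM) was above KLF5 (368 ± 20.9 TPM), and KLF2, last in untreated TIGK, was sixth at 94.9 ± 5.0 TPM, behind KLF10 (229), KLF3 (145) and KLF4 (117). Without division by gene length KLF2 was ninth, since its gene model is the shortest of the 10 at 2018 bases. KLF7 (51.9), KLF11 (43.7) and KLF13 (41.1) followed, and KLF9 (19.6 TPM) was last. KLF11 overlapped both KLF7 and KLF13, which were apart from each other. Summed over the 10 members, the level was 851 to 860 TPM in untreated and 674 to 852 in treated HaCaT, and 1030 to 1096 in untreated and 1497 to 1546 in treated TIGK. The share of this sum held by KLF2 went from 0.473% to 0.582% in untreated TIGK to 5.77% to 6.48% after H2O2, and in HaCaT from 0.0465% to 0.0978% to between 0.696% and 1.15%. KLF6 went from 11.6% to 13.3% of the sum in untreated TIGK to 25.7% to 28.2% after treatment, and KLF5 from 43.5% to 45.5% down to 23.3% to 25.4%. These shares are a description, since the TIGK response was used to pick the family.

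**Figure D4:**
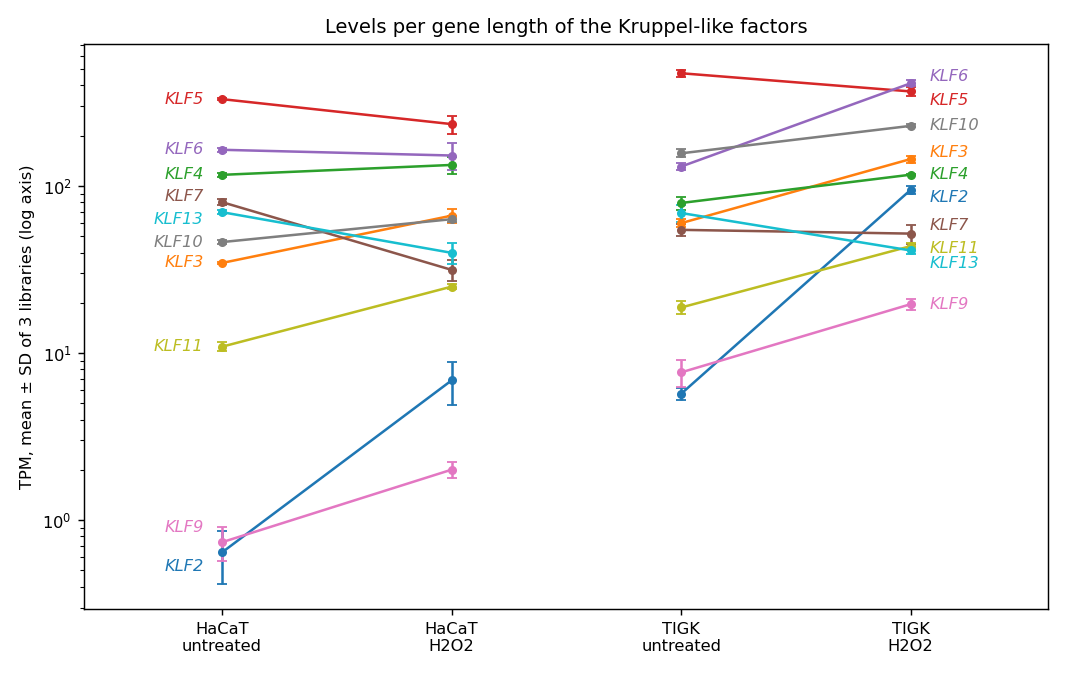
Level per gene length of the 10 KLFs in each group (TPM, log axis; points are means and bars the SD of 3 libraries), with lines joining untreated to treated libraries of the same cells. KLF2 goes from 5.71 to 94.9 TPM in TIGK and KLF6 passes KLF5 at the top.

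Genes whose profile over the 12 libraries was most like that of a member were found by the root mean square difference of centred log2 CPM (counts scaled to the library total). Picked for their likeness, they are given with values and no test. For KLF2 these were DUSP1 (0.556), a phosphatase that switches off MAP kinases, EGR2 (0.72), an immediate early transcription factor, and CTGF (1.04), a matrix protein and target of YAP. They were only loosely alike. The log2 response of DUSP1 was 3.13 in TIGK and 4.02 in HaCaT, while that of CTGF was 4.93 in TIGK and 1.20 in HaCaT, against 4.04 and 3.44 for KLF2. KLF3 and KLF11 were each other's nearest gene (0.149), and HERPUD1, a gene of the endoplasmic reticulum stress response, was second for both (0.153 and 0.16). The log2 response of HERPUD1 was 1.15 in both lines. The nearest gene of KLF6 was ZC3H12A (0.159), an RNase that degrades cytokine mRNAs, with log2 responses of 1.41 in TIGK and -0.13 in HaCaT. SOWAHC (0.257) and SNAI2 (0.258), a regulator of epithelial migration, came next. KLF7 was closest to TRIM56 (0.147) and EPHA4 (0.167), whose log2 responses in HaCaT were -1.33 and -1.19. KLF9 was nearest to VAV3 (0.328), FOXO6 (0.364) and SOX2 (0.415). For the other members the nearest genes were ZFAND5 for KLF4 (0.079), TRIP12 for KLF5 (0.0517), AKTIP for KLF10 (0.0997) and DYNC1H1 for KLF13 (0.0669).

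Other genes of the family were next. Of the 8 KLF genes that are not members, 5 could be tested. In the TIGK response 0 passed the limit by edgeR (1, lower, at an unadjusted p under 0.05 and 0 by DESeq2), and in HaCaT 2 fell, KLF14 and KLF12. The limit called 10.2% of all genes higher and 12.9% lower in TIGK, and 18.9% and 15.2% in HaCaT. KLF14, a single-exon gene known from metabolic control, had 17, 22 and 35 raw counts in untreated HaCaT and 0, 0 and 2 in treated HaCaT, at or under a floor of 3 counts per library, so that it was at least 7.16-fold lower. In TIGK it had 99, 87 and 67 raw counts before and 42, 35 and 75 after. KLF12, a CtBP-binding repressor like KLF3, fell by 0.74 on the log2 scale in HaCaT (SE 0.15, adjusted p = 5.89e-04, edgeR), from a mean of 520 to 312 normalized counts. In TIGK it was near the detection limit, with 7 to 16 raw counts per library, and the untreated lines differed by -5.30 (SE 0.22, adjusted p = 6.82e-14). Of the 3 CtBP-binding factors, KLF3 thus rose and KLF12 fell in HaCaT, and KLF8 had a log2 fold change of -0.09 (SE 0.158, adjusted p = 0.671, edgeR). KLF15, induced by glucocorticoids in many tissues, had 0 to 4 raw counts in HaCaT and 8 to 42 in TIGK. KLF17 had 0 counts in all libraries, and KLF1 and KLF18 were too low to test.

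Among the related SP genes, zinc finger factors that bind the same GC boxes, 7 of 9 were tested, and 1 rose in each line. Of all genes tested, 18.9% rose in HaCaT and 10.2% in TIGK. SP5 rose by 1.21 in HaCaT (SE 0.28, adjusted p = 0.00163) and SP8 by 0.80 in TIGK (SE 0.21, adjusted p = 0.00522, edgeR). SP8 differed most between the untreated lines (-4.47, adjusted p = 1.49e-14, edgeR), with 658 normalized counts in HaCaT and 29.6 in TIGK. SP7 had 0 counts in all libraries.

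**Figure D5:**
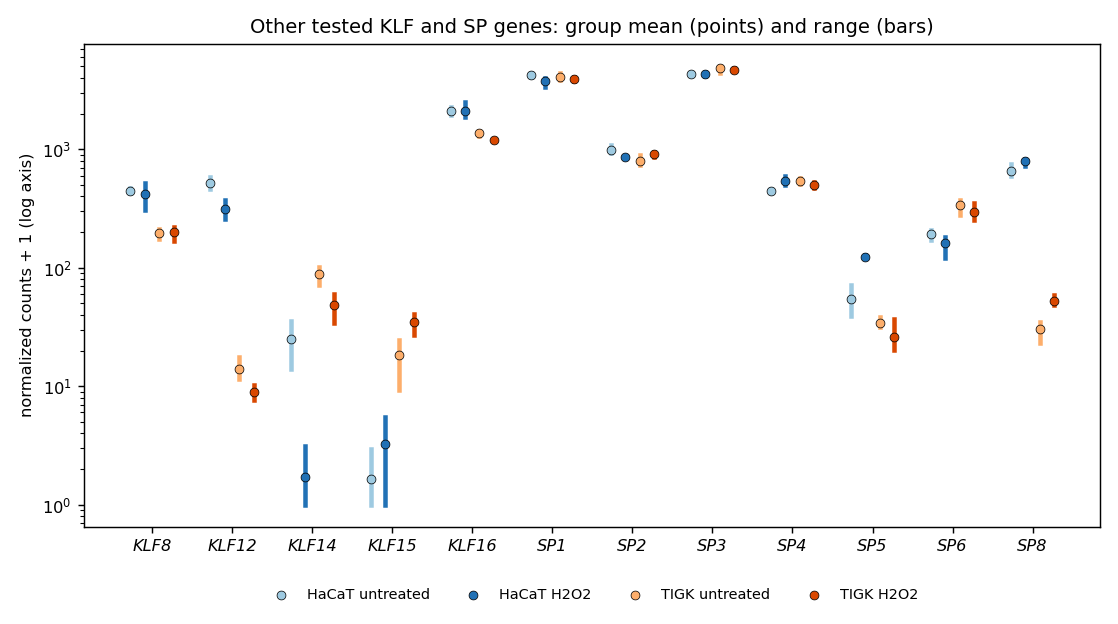
Mean normalized counts plus 1 (points, log axis) and the range of 3 libraries (bars) for the 5 other KLF and 7 SP genes tested. KLF12 and SP8 are high in HaCaT and low in TIGK, and KLF14 drops to at most 2 raw counts in treated HaCaT.

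Partners of the KLFs were compared in the same way. Of 8 corepressors and coactivators, 2 rose and 3 fell in HaCaT, against 18.9% and 15.2% of all genes tested. In TIGK 1 rose and 3 fell, against 10.2% and 12.9%. The acetyltransferases EP300 and CREBBP fell by 0.71 (SE 0.099, adjusted p = 1.53e-05) and 0.60 (SE 0.08, adjusted p = 9.82e-06) on the log2 scale in HaCaT, and EP300 by 0.48 in TIGK (adjusted p = 0.00121, edgeR). SIN3A fell by 0.39 in TIGK (adjusted p = 2.89e-04) and SIN3B by 0.25 (adjusted p = 0.00173). In the difference of responses 0 of the 8 passed the limit by edgeR (3 at an unadjusted p under 0.05, 0 by DESeq2). Of all genes tested, 2.32% were higher and 2.98% lower in this contrast by edgeR. Of 6 ubiquitin ligases that are known to target KLFs, 2 fell in HaCaT, against 15.2% of all genes tested. The larger fall was that of SMURF1 (-0.73, SE 0.07, adjusted p = 1.82e-07), which also differed between the responses (0.51, adjusted p = 0.00245, edgeR). In TIGK BTRC rose by 0.31 (SE 0.071, adjusted p = 0.00255) and SMURF2 fell by 0.44 (SE 0.064, adjusted p = 2.69e-05, edgeR).

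The ERK5 and MEF2 pathway, known as the route to KLF2 in endothelium, had 6 of 7 genes tested. In HaCaT 3 were higher and 2 lower, against 18.9% and 15.2% of all genes. In TIGK 1 went each way, against 10.2% higher and 12.9% lower. MAP2K5, the kinase that activates ERK5, rose by 0.73 in HaCaT (SE 0.11, adjusted p = 3.07e-05) and by 0.58 in TIGK (SE 0.11, adjusted p = 6.45e-04, edgeR). MAPK7, which encodes ERK5 itself, fell by 0.61 in TIGK (SE 0.12, adjusted p = 8.25e-04). MEF2A fell by 0.42 in HaCaT (adjusted p = 6.73e-05) and MAP3K2 by 0.30 (adjusted p = 0.00363, edgeR). MAP3K3 and MEF2D rose there by 0.45 and 0.32 (adjusted p = 0.0017 and 7.76e-04, edgeR). In TIGK MEF2D and MEF2A did not pass the limit (log2 0.22 and -0.20, adjusted p = 0.0161 and 0.0261, edgeR). MEF2C was too low to test.

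A list of 7 genes for the glucocorticoid receptor and its targets was considered because of KLF9 and the hydrocortisone in the medium. In HaCaT 4 rose and 1 fell, against 18.9% and 15.2% of all genes tested. In TIGK 3 rose and 1 fell, against 10.2% and 12.9%. TSC22D3 (GILZ), a classical target, rose by 1.24 in HaCaT (SE 0.069, adjusted p = 1.38e-10) and by 1.35 in TIGK (SE 0.071, adjusted p = 4.47e-11, edgeR). Other targets responded unequally. ERRFI1, a feedback inhibitor of the EGF receptor, rose by 1.57 in TIGK (adjusted p = 2.96e-12) and by 0.25 in HaCaT (adjusted p = 0.00655), a difference of 1.32 (SE 0.097, adjusted p = 4.91e-08, edgeR). SGK1, a kinase, rose by 1.44 in TIGK and 0.76 in HaCaT (difference 0.68, SE 0.12, adjusted p = 9.21e-04). PER1, a clock gene, rose by 0.94 in HaCaT (adjusted p = 1.85e-07) and had a log2 fold change of 0.19 in TIGK (adjusted p = 0.0947), a difference of -0.74 (SE 0.13, adjusted p = 6.64e-04, edgeR). NR3C1, the receptor, fell by 0.75 in HaCaT (adjusted p = 4.26e-08) and by 0.40 in TIGK (adjusted p = 7.64e-05). FKBP5, another classical target, was higher in untreated TIGK by 1.69 (SE 0.053, adjusted p = 1.34e-15) and did not pass the limit in either response. ZBTB16 had 0 counts in untreated HaCaT and 30 to 92 in untreated TIGK. Between the untreated lines 4 of the 7 genes were higher and 2 lower in TIGK by edgeR, against 30.8% and 29.1% of all genes. The lower ones were TSC22D3 and SGK1, by 0.66 and 0.85. The part of the receptor in the KLF9 values was not tested.

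The KLF targets were 10 genes, known mostly from endothelium. In HaCaT 3 rose and 3 fell, against 18.9% and 15.2% of all genes tested, and in TIGK 2 rose and 3 fell, against 10.2% and 12.9%. EDN1, endothelin 1, which KLF2 represses in endothelium, rose by 0.97 in HaCaT (SE 0.13, adjusted p = 1.21e-05) and by 2.42 in TIGK (SE 0.13, adjusted p = 4.73e-11, edgeR). S1PR1, a receptor that KLF2 induces in T cells, fell by 1.18 in TIGK (SE 0.12, adjusted p = 5.73e-07), from a mean of 1625 to 716 normalized counts, and THBD, thrombomodulin, which KLF2 induces in endothelium, fell by 0.70 (SE 0.072, adjusted p = 5.87e-07). In HaCaT THBD fell by 0.28 (adjusted p = 0.00692), while S1PR1 had a log2 fold change of 0.26 (SE 0.187, adjusted p = 0.268, edgeR). The S1PR1 responses differed by -1.44 between the lines (SE 0.22, adjusted p = 2.96e-04, edgeR). Before treatment 5 of the 10 targets were higher and 5 lower in TIGK by edgeR, against 30.8% and 29.1% of all genes. S1PR1, ENG and THBD were higher by 4.53, 3.12 and 2.22 on the log2 scale (adjusted p = 4.02e-15, 7.07e-12 and 5.26e-15, edgeR), EDN1 by 0.43 (adjusted p = 0.00848), and SMAD7, an inhibitor of TGF-beta signalling, and CDKN1A were lower by 1.05 and 0.85 (adjusted p = 1.25e-07 and 5.88e-09). CDKN1A, the cell cycle inhibitor p21 and a target of KLF4 and KLF6, rose by 0.62 in TIGK (SE 0.074, adjusted p = 3.88e-06), and its responses differed by 0.49 between the lines (adjusted p = 0.00496, edgeR).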

How the data were processed

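RNA was sequenced from 12 libraries, 3 in each of 4 groups, which were assigned from the sample titles. The authors deposited raw counts per gene, made per the methods and the submitters' processing notes with HISAT2 2.0.5 on GRCh38, StringTie 1.3.3b and featureCounts 1.5.0-p3 (the notes also name HISAT2 2.0.0). The annotation release, strand setting and treatment of multi-mapped reads are not given in the sources used here. The authors' own comparison tables hold DESeq2 log2 fold changes and p-values and were not used.

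Counts of genes with a mean of at least 10 were normalized by TMM and fitted with edgeR 4.0.16 and limma 3.58.1 under R 4.3.3, all 4 groups in 1 quasi-likelihood model, with Benjamini-Hochberg adjustment over 16618 genes and a limit of 0.01 on the adjusted p. Each SE was worked back from the test, as the absolute log2 fold change over the square root of its F statistic. The 95% intervals are the log2 fold change ± 2.098 SE, with the same multiplier for all genes. Both are therefore approximate. TPM was computed from the counts and the deposited gene lengths. Replicate libraries were compared by chi-square, and each pair differed beyond counting noise (chi-square per degree of freedom 4.36 to 26.9). DESeq2 1.42.0, other scalings, filters and limits, fits on the compared groups alone, a replicate block and fits without each library were alternatives. Plots used matplotlib 3.10.9 under Python 3.11.15.

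The members and the gene lists were chosen with earlier results of these data known, and the lists were written from general knowledge. Named were all members, up to 3 genes of each list with the largest change past the limit in a comparison, list genes with 0 counts, and the nearest profiles of each member. NR3C1, MEF2C, KLF1, KLF8, KLF18 and SMAD7 fall outside this rule and were named after their values were seen. Motif shares are over RefSeq promoter windows of GRCh38.p14.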

Additional observations from a re-analysis of the deposited data

Results flagged for a closer look

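In 3 members the response to H2O2 differed between TIGK and HaCaT by a test of the difference itself, edgeR's interaction contrast adjusted over all genes tested. KLF6 differed by 1.77 on the log2 scale (adjusted p = 7.43e-09), KLF7 by 1.27 (adjusted p = 6.62e-07) and KLF4 by 0.36 (adjusted p = 0.00891). The call of KLF4 was lost under the replicate block (adjusted p = 0.0221), with library totals only (0.0154) and in 8 of the 12 fits that left out 1 library (up to 0.0275). Of all genes tested, 2.32% were higher and 2.98% lower in this contrast, which contains the TIGK response on which the family was picked. The first rested on a higher level in treated TIGK with overlapping HaCaT groups, the second on a fall in HaCaT with overlapping TIGK groups, and the third on changes in the same direction in both lines. In all 3 the more positive response was in TIGK.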

How the results depend on the processing

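Of 21 alternatives, 9 kept all libraries and 12 left out 1 library each, and the test of the difference of responses had 20, since fits on the compared groups alone could not give it. No called value changed sign. Counts of members past the limit moved by over 1.5 times only where a log2 fold change past 1 was also asked for: HaCaT went to 3 higher and 1 lower, the untreated lines to 2 higher and 0 lower in TIGK, and the lines after H2O2 to 3 higher and 0 lower. Leaving out 1 library gave 5 to 6 higher and 3 to 4 lower in HaCaT, 2 to 4 higher and 0 lower in the difference of responses, 5 higher and 3 to 4 lower between untreated lines, and 7 and 1 after H2O2. In TIGK, counted by sign with no test, 7 were positive and 3 negative in each fit. KLF6 and KLF7 kept their difference of responses throughout (1.69 to 1.94 and 1.21 to 1.41). KLF4 was lost under library totals only (adjusted p = 0.0154) and the replicate block (0.0221), besides the single libraries named above, over a full range of 3.39e-04 to 0.0275. KLF3 was gained with no filter (0.00113), filterByExpr (0.00491) and DESeq2 (adjusted p = 0.00217), with a full range to 0.038. KLF13 between untreated lines passed with no filter (adjusted p = 0.00163). The causes were not tested. Given with no test, KLF2 ranged from 3.96 to 4.11 for the TIGK response, 0.34 to 0.90 for the difference of responses, 2.71 to 3.27 between the untreated lines and 3.42 to 3.81 between the lines after H2O2. Replicate numbers did not pair the samples: 0 of 18 correlations of same-numbered deviations were over 0.1 (-0.121 to 0.0257). With the replicate block, 2 members in place of 3 differed in response, and all other counts of members were as without it. Depth limits KLF2 in untreated HaCaT, KLF14 and KLF15, whose raw counts were low.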
